A study of Mus musculus with 12 samples.

Results

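The comparison described here concerns T cells that carry no functional STING and asks what 10-carboxymethyl-9-acridanone (CMA), a cell-permeable small molecule that activates mouse STING, changes in them compared with its solvent DMSO. Its members were chosen by their titles: the 3 libraries of STINGgt/gt T cells kept in CMA and the 3 libraries of STINGgt/gt T cells kept in DMSO, which are 6 of the 12 libraries of the series. The other 6 hold wild-type (WT) T cells under the same 2 treatments. All cells were naive CD4+ T cells sorted from the spleen of C57BL/6 mice, expanded with antibodies to CD3 and CD28, rested, and then given CMA or DMSO, without these antibodies, for 16 h before RNA sequencing. STINGgt/gt (Goldenticket) mice carry a missense mutation in Tmem173, the gene of STING, and the titles call their cells STING KO. The study describes replicates of its sequencing as biological without naming the STINGgt/gt groups, and the labels do not say whether the 3 libraries of a group came from separate mice, so the p-values below measure the spread between these libraries, which may in part be technical.

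STING is an adaptor of the endoplasmic reticulum that is activated by cyclic dinucleotides made when DNA appears in the cytosol. Active STING recruits the kinase TBK1, which phosphorylates the transcription factor IRF3, and it also feeds into NF-κB. The result in most cells is type I interferon and the set of interferon-stimulated genes, and in T cells strong activation is known to bring on cell death. A gene that changed with CMA in STINGgt/gt cells changed without that signal in its usual form, and whether the mutant protein keeps any activity was not measured here.

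Between 31548976 and 38454051 reads fell on genes in the DMSO libraries (median 36169486) and between 37104838 and 43784910 in the CMA libraries (median 37860895). Levels are given in CPM, the count of a gene scaled to the size of its library, which does not allow for gene length. Tmem173 itself was at 181, 170.5 and 168 CPM with DMSO and at 184, 169 and 175 CPM with CMA (log2 fold change 0.02, adjusted p = 0.885, edgeR quasi-likelihood test). A missense allele leaves its transcript in place, so this level does not check the genotype labels. The summed level of 12 T cell markers was 4144 to 4160 CPM with DMSO and 4165 to 4225 CPM with CMA, and Cd4 and Cd3e were present in every library. The 11 B cell markers summed to 529 to 553 CPM against 551 to 558 CPM and the 13 myeloid markers to 56.5 to 61.1 CPM against 57.7 to 62.8 CPM, with S100a8 and S100a9 at 0 throughout. The 9 markers of CD8 T and NK cells reached 58.6 to 66.3 CPM against 62.4 to 69.3 CPM, and the 9 of erythroid cells and platelets 2.38 to 3.01 CPM against 2.05 to 2.39 CPM, with Hba-a2 at 0. None of the tested genes in these 5 marker lists passed the test. Of the 11 B cell markers, 3 had a positive and 8 a negative log2 fold change (median -0.02). Of these markers 1, Ighm, passed in a fit of the 6 STINGgt/gt libraries alone (204, 202 and 208 CPM with DMSO, 227, 232 and 220.0 CPM with CMA, log2 fold change 0.14, adjusted p = 0.0321, edgeR). Outside the lists, the immunoglobulin gene Igkv4-59 rose in the joint fit (0.129, 0.192 and 0.124 CPM against 0.346, 0.498 and 0.494 CPM) and Ighg3 passed in the 6 libraries alone (log2 fold change 0.44). The part of B cell transcripts in the other results was not tested. In RNA from whole cultures, fewer cells of a type and less RNA per cell cannot be told apart.

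Of 13811 genes tested, 55 were higher with CMA in STINGgt/gt cells (0.398%) and 127 were lower (0.920%), 182 in all (1.32%), at an adjusted p under 0.05. In the same fit CMA changed 9728 genes in WT cells (70.4%). The changes in STINGgt/gt cells were small. The median log2 fold change was 0.29 among the genes that rose and -0.33 among those that fell, which is 22.4% more and 20.7% less RNA, against a median of 0.0013 over all genes tested. For 4 genes the change reached 2-fold, Igkv4-59 and Gm12532 upwards and Il24 and Hist1h3e downwards, and all of them had low counts, between 4 and 66 reads in a library. Every one of the 182 genes had 3 CMA libraries lying wholly above or below the 3 DMSO libraries, whereas 23.1% of all genes tested did so. The first principal component, with 28.6% of the variance of the 6 libraries, separated CMA from DMSO. The number of genes that passed differed between fits. The variation between replicates (common biological coefficient of variation) was 3.66% in the 6 STINGgt/gt libraries, 6.40% in the 6 WT libraries and 5.17% in the joint fit, and when the 6 STINGgt/gt libraries were fitted alone, 656 of 13113 genes passed, including all 182. Of the 656, 268 rose and 388 fell, and counts of list members from that fit are to be read against these. Leaving out 1 STINGgt/gt library left 15 higher and 54 lower genes without DMSO 1, 14 and 42 without DMSO 2, 22 and 51 without DMSO 3, 31 and 72 without CMA 1, 18 and 51 without CMA 2, and 15 and 41 without CMA 3. Leaving out WT DMSO 2 or WT DMSO 3 raised the counts to 180 and 276 or to 169 and 289. Of the 182 genes, 41 passed in each of the 6 fits without a STINGgt/gt library, and 32 passed in all 22 alternative fits.

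**Figure D1:**
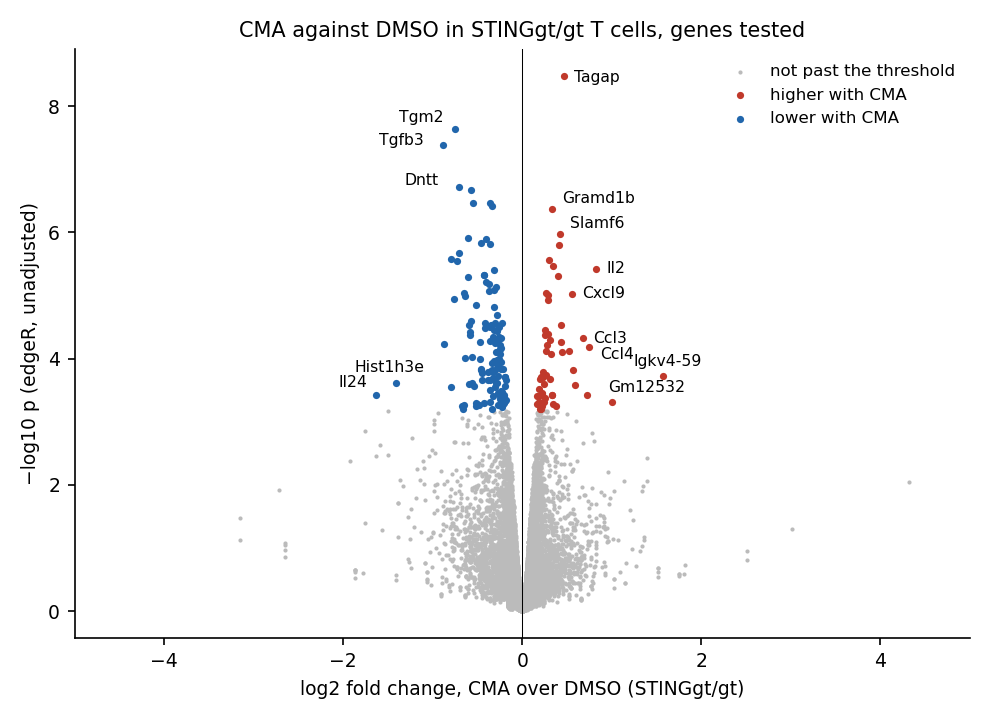
Each point is a gene, with the log2 fold change of CMA over DMSO in STINGgt/gt cells on the horizontal axis and the −log10 of the unadjusted edgeR p on the vertical axis. The 55 genes in red rose and the 127 in blue fell past an adjusted p of 0.05, and nearly all coloured points lie within 1 log2 unit of 0, with Tagap, Tgm2 and Tgfb3 at the top.

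The gene with the smallest p was Tagap, which encodes a GTPase-activating protein and is induced when T cells are activated. Tagap (chr17:7926000-7934897, GRCm38) stood at 173, 171 and 169 CPM with DMSO and at 232, 242 and 235 CPM with CMA. The groups did not overlap and the log2 fold change was 0.47 ± 0.040 (SE, n = 3 and 3, adjusted p = 4.58e-05, edgeR). An antisense gene that overlaps it, E430024P14Rik, also rose, at far lower levels (log2 fold change 0.72). It was at 1.06, 1.18 and 1.24 CPM with DMSO and at 2.16, 1.67 and 1.92 CPM with CMA. E430024P14Rik passed in none of the 6 fits without a STINGgt/gt library. The strand setting of the counting is not given in the sources used here, so reads where this pair overlaps cannot be told apart. Il2, the growth factor that T cells make after activation (chr3:37120523-37125959), was at 6.16, 5.25 and 5.07 CPM with DMSO and at 8.38, 9.79 and 11.0 CPM with CMA, a rise of 0.82 ± 0.119 (adjusted p = 0.00243). Slamf6, a costimulatory receptor of the SLAM family (chr1:171917537-171943868), went from 56.4, 51.9 and 53.3 CPM to 67.0, 74.3 and 75.3 CPM, a rise of 0.42 ± 0.055 (adjusted p = 0.00145). In each of these genes the lowest CMA library lay above the highest DMSO library, and Il2 had the largest relative rise. Egr2, a zinc finger factor induced by T cell receptor signals (chr10:67535475-67542188), had 53.3, 52.5 and 59.9 CPM with DMSO and 68.2, 74.6 and 75.1 CPM with CMA (0.40 ± 0.059, adjusted p = 0.00271). Tbx21, which encodes the Th1 factor T-bet (chr11:97098071-97115331), had 90.3, 91.3 and 91.1 CPM against 116, 109 and 111 CPM (0.30 ± 0.043, adjusted p = 0.00208). These 5 genes, and Gramd1b (0.33), Slfn2 (0.41), which helps to hold T cells in quiescence, and the sialyltransferase gene St6galnac4 (0.29), passed in all 22 alternative fits.

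Most genes of the T cell activation lists did not pass. Of 38 tested immediate early and NFAT-EGR genes, 3 rose (Egr2, Fos and Nr4a1) and 1 fell (Ier3), with a median log2 fold change of 0.04, and Egr3 reached 0.39 with an adjusted p just over 0.05. In the 6 STINGgt/gt libraries alone, 9 of the 38 rose and 1 fell, against 268 and 388 of all 13113 genes. The number that rose ranged from 1 to 5 over the fits without a library. Fos was at 5.87, 5.66 and 5.94 CPM with DMSO and at 7.13, 8.37 and 8.11 CPM with CMA (0.44, adjusted p = 0.0112), and Nr4a1, a nuclear receptor gene that follows the strength of antigen receptor signals, at 229, 226 and 252 CPM against 282, 268 and 282 CPM (0.24, adjusted p = 0.0242). Both fell short of the threshold in fits without single STINGgt/gt libraries, Fos without DMSO 1, DMSO 2, CMA 2 or CMA 3 and Nr4a1 without any of the 6 but DMSO 3. Of 33 T cell receptor signalling genes 2 rose (Tagap and Prkcq, 0.20, which passed in no fit without 1 STINGgt/gt library), and of 34 activation, costimulatory and checkpoint receptors 1 rose (Slamf6). The share called over all genes tested was 1.32%. Among 36 cytokines and chemokines of T cells, 4 rose (Il2, Cxcl10, Ccl3 and Ccl4) and 2 fell (Tgfb3 and Il24), and the median of the list was -0.06. The chemokine genes Ccl3 and Ccl4, neighbours on chromosome 11, rose together. Ccl3 stood at 6.13, 6.16 and 6.01 CPM with DMSO and at 9.98, 8.82 and 10.5 CPM with CMA (0.68 ± 0.122, adjusted p = 0.0107). Ccl4 stood at 9.43, 7.55 and 10.8 CPM against 14.2, 15.6 and 16.7 CPM (0.75 ± 0.140, adjusted p = 0.0123). Neither passed without DMSO 1, DMSO 2 or CMA 3 (adjusted p between 0.0587 and 0.0872), and Ccl3 also missed without DMSO 3 (0.0583) and Ccl4 without CMA 2 (0.0569). The count of risen cytokine genes ranged from 1 to 4 over the fits without a library.

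**Figure D2:**
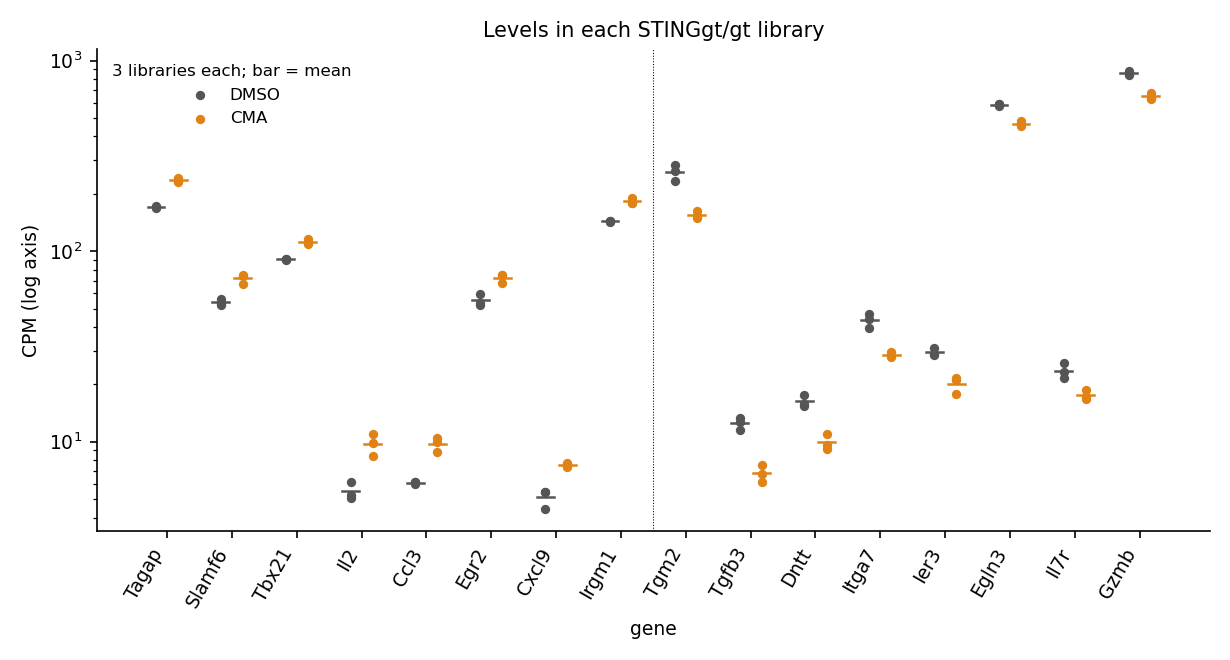
Expression in CPM (logarithmic axis) of 16 genes in the 3 DMSO and the 3 CMA libraries of STINGgt/gt cells, 1 point per library and a bar at the mean. In all 16 genes the points of CMA lie wholly above or wholly below those of DMSO, and the distance between the groups is small beside the range of the axis.

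Among genes that answer to interferon, those of the guanylate-binding proteins (GBPs) and immunity-related GTPases (IRGs) included 9 that rose. These GTPases coat and break the vacuoles of intracellular microbes, and their genes are driven mainly by interferon-γ, in part through IRF1. This list was put together after the values of some of its members had been seen, so its count is a description. Of 24 GBP and IRG genes tested, 9 rose, against 0.398% of all genes tested, and none fell. Of the 24, 22 had a positive log2 fold change and the median was 0.22 against 0.0013 over all genes tested. Irgm1 (chr11:48861968-48871683), which regulates the other IRGs, was at 143, 143 and 145 CPM with DMSO and at 179, 190.3 and 178 CPM with CMA (0.35 ± 0.050, adjusted p = 0.00232). Gbp2 (chr3:142620602-142638008) was at 917, 919.6 and 911 CPM against 1054, 1162 and 1118 CPM (0.28 ± 0.052, adjusted p = 0.0119). Igtp had 502, 479 and 495 CPM against 539, 573 and 569 CPM (0.19, adjusted p = 0.0321) and Irgm2 109, 109.8 and 115 CPM against 126, 139 and 137 CPM (0.27, adjusted p = 0.0138). The groups were apart in each of these genes. Irgm1 passed in all 22 alternative fits. The others did not, and the number of GBP and IRG GTPases that rose was 1 without DMSO 2 or without CMA 2, 2 without DMSO 1 or without CMA 3, 3 without DMSO 3 and 7 without CMA 1, while it was 13 in the 6 STINGgt/gt libraries alone and 12 without WT DMSO 2 or WT DMSO 3. The median stayed between 0.17 and 0.25 in those fits. Tgtp1 (0.29), Tgtp2 (0.23), Gm12185 (0.26), Gbp4 (0.24) and Gbp6 (0.25) also rose, but Tgtp1 and Tgtp2 are near-identical, Gm12185 overlaps Tgtp1, Igtp and Irgm2 overlap each other, and Gbp4 and Gbp6 overlap further GBP genes, so the reads of these genes are uncertain. Iigp1 missed the threshold with 0.30 (adjusted p = 0.0534) and Gbp5 had 0.11 (adjusted p = 0.373).

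Of 53 tested interferon-stimulated genes in a wider list, 7 rose and 1 fell (15.1%, against 1.32% of all genes tested), with 29 positive and 24 negative log2 fold changes and a median of 0.02, against 51 higher genes and a median of 2.45 in WT. The 7 were Irgm1, Igtp and Gbp2 together with Cxcl9, Cxcl10, Irf1 and Irf8. Cxcl9 and Cxcl10 encode chemokines that draw in cells bearing CXCR3. Cxcl9 (chr5:92321331-92328079) was at 5.44, 5.42 and 4.45 CPM with DMSO and at 7.77, 7.51 and 7.35 CPM with CMA (0.56 ± 0.088, adjusted p = 0.00383). Cxcl10 (chr5:92346638-92348889) was at 6.91, 7.03 and 7.69 CPM against 9.29, 10.3 and 9.48 CPM (0.43 ± 0.075, adjusted p = 0.00853), and missed the threshold without DMSO 1, DMSO 2 or CMA 2 (adjusted p between 0.0560 and 0.0587). Irf1, the transcription factor gene upstream of many GBP genes, was at 311, 317 and 323 CPM against 381, 393 and 387 CPM (0.29 ± 0.045, adjusted p = 0.00383), and Irf8 was at 676, 684 and 705 CPM against 786, 775 and 824 CPM (0.21, adjusted p = 0.0242). Irf8 passed in no fit without 1 STINGgt/gt library. Several type I interferon targets that rose steeply in WT had no call. Isg15, a ubiquitin-like modifier, was at 11.8, 10.3 and 15.4 CPM with DMSO and at 12.4, 11.3 and 11.1 CPM with CMA (-0.11, adjusted p = 0.783), and Mx1 had 0.00, Ifit1 0.24, Rsad2 0.25 and Irf7 -0.21. The member of the list that fell was Dhx58, which encodes the RNA sensor LGP2, from 42.2, 41.4 and 48.9 CPM to 36.6, 33.3 and 33.4 CPM (-0.36 ± 0.065, adjusted p = 0.0112, missed without DMSO 3, CMA 2 or CMA 3). Ifi27, an interferon-induced gene that the list does not hold, fell from 98.2, 85.1 and 106 CPM to 84.0, 59.9 and 60.3 CPM (-0.50 ± 0.116, adjusted p = 0.0429), and passed in 12 of 22 alternative fits. In fits without a STINGgt/gt library, between 3 and 7 interferon-stimulated genes rose and at most 1 fell, and in the 6 STINGgt/gt libraries alone 13 of 51 rose and 3 fell.

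The sequences upstream of 4 of the genes that rose are printed to show the short motif they share. Interferon regulatory factors bind elements built around repeats of GAAA, and the motif GAAANNGAA was searched on both strands from 250 bases before to 50 bases after the start of each RefSeq gene (GRCm38.p6). The stretches below end at the base before the start of the gene and are written 5′ to 3′ on the strand of the gene, with the match in capitals. Irgm2 lies at chr11:58214877-58214976 (plus strand), Igtp at chr11:58199456-58199555 (plus strand), Cxcl9 at chr5:92328080-92328329 (minus strand) and Cxcl10 at chr5:92348890-92349139 (minus strand).
Irgm2: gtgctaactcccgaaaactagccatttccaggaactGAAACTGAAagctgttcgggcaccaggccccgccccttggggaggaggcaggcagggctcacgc
Igtp: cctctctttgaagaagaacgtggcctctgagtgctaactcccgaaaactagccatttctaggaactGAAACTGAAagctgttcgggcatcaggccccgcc
Cxcl9: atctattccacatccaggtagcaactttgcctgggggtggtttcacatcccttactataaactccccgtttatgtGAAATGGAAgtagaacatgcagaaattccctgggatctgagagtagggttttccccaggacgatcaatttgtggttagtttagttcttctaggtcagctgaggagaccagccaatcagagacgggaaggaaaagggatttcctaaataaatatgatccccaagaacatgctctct
Cxcl10: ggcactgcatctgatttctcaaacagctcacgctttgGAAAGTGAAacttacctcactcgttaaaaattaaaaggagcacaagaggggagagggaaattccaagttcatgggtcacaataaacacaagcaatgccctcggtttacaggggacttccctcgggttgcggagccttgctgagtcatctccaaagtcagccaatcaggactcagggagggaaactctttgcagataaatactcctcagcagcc
The matches in Irgm2 and Igtp begin 64 and 34 bases before the start, and both stretches share an identical run of 29 bases. Those of Cxcl9 and Cxcl10 begin 175 and 213 bases before it. Promoters were matched for 10178 of the 13811 genes tested, for 41 of the 55 that rose and for 88 of the 127 that fell. GAAANNGAA was present in 14 of the 41 (34.1%), in 8 of the 88 (9.09%) and in 871 of all 10178 (8.56%). Of the 14, 7 were GBP or IRG genes, among them the near-identical Tgtp1 and Tgtp2. Besides these GTPase genes and the chemokines Cxcl9, Cxcl10 and Ccl3, the 14 included Egr2. The motif was also present in 12 of 15 GBP and IRG genes with a matched promoter, called or not (80.0%). Counted by gene with a matched promoter, the AP-1 element TGANTCA was present in 9.76% of risen genes, 10.2% of fallen genes and 6.06% of all. The NF-κB-like GGGNNTTCC was present in 14.6%, 14.8% and 8.61%. These shares were not tested and a match does not show that a factor binds there.

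Among the 127 genes that fell, the transglutaminase gene Tgm2 and the growth factor gene Tgfb3 had the smallest p. Tgm2, whose enzyme cross-links proteins (chr2:158116402-158146436), was at 233, 264 and 282 CPM with DMSO and at 150.02, 162 and 152 CPM with CMA (-0.75 ± 0.073, adjusted p = 0.000157). Tgfb3, a ligand of the TGF-β receptors (chr12:86056744-86079041), was at 11.5, 12.7 and 13.4 CPM against 7.53, 6.17 and 6.73 CPM (-0.88 ± 0.090, adjusted p = 0.000191). In both genes the CMA libraries lay well below the lowest DMSO library. The TGF-β target Id2 (-0.37, adjusted p = 0.00325) and the receptor gene Acvrl1 (-0.38, adjusted p = 0.0255) fell as well, Acvrl1 missing the threshold in each fit without 1 STINGgt/gt library. Of the 42 tested genes of TGF-β and activin signalling 4 fell, against 0.920% of all genes tested, and none rose in the joint fit. Of these 4, 3 passed in every fit without a STINGgt/gt library. In the 6 STINGgt/gt libraries alone, 2 of 40 rose and 5 fell, against 268 and 388 of all 13113 genes. Over the fits without a library, at most 1 gene of this list rose and 3 to 4 fell. The median of the list was -0.02. Tgfb1, the main TGF-β of T cells, had -0.15 (adjusted p = 0.261) and the feedback inhibitor gene Smad7 -0.02 (adjusted p = 0.923). Dntt, the DNA polymerase that adds bases at V(D)J junctions and is normally a gene of thymocytes (chr19:41029275-41059523), was at 15.4, 15.8 and 17.6 CPM against 9.21, 10.9 and 9.67 CPM (-0.71 ± 0.081, adjusted p = 0.000581), and was the only 1 of 13 tested V(D)J and early thymocyte genes to pass.

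Genes that answer to oxygen supply through hypoxia-inducible factors (HIFs) were described by a pair of lists. Of 34 tested genes of glycolysis and hypoxia, 6 fell, against 0.920% of all genes tested, none rose and 29 had a negative log2 fold change, with a median of -0.09. The number that fell was 2 or 3 in the fits without 1 STINGgt/gt library, 10 without WT DMSO 2, 11 without WT DMSO 3 and 11 in the 6 STINGgt/gt libraries alone. A wider list of 46 oxygen-responsive genes, put together after values had been seen and therefore given as a description, held 14 that fell, against the same 0.920%, and none that rose, with 38 negative values and a median of -0.14. Egln3, the HIF prolyl hydroxylase PHD3 (chr12:54178981-54203860), was at 579, 593 and 591 CPM with DMSO and at 455, 480.3 and 462 CPM with CMA (-0.33 ± 0.040, adjusted p = 0.000654). Ero1l, the oxidase that forms disulphide bonds in the endoplasmic reticulum (chr14:45283092-45318572), was at 631, 679.9 and 642 CPM against 464, 520.2 and 492 CPM (-0.40 ± 0.054, adjusted p = 0.00145). Both genes, and Ppp1r3b (-0.35), which targets a phosphatase to glycogen, passed in all 22 alternative fits. The glycogen branching enzyme Gbe1 (-0.31), Hif3a (-0.42), Stc1 (-0.56), Apln (-0.47), Aldoc (-0.28), Hilpda (-0.27), Ddit4 (-0.28), Mgarp (-0.29), Plod2 (-0.27), Bnip3 (-0.23) and Mxi1 (-0.18) also fell. The commonly used members Ldha (-0.05, adjusted p = 0.644), Slc2a1 (-0.09, adjusted p = 0.427) and Vegfa (-0.12, adjusted p = 0.378) had no call. The number of oxygen-responsive genes that fell was 6 without DMSO 1, 4 without DMSO 2, 6 without DMSO 3, 8 without CMA 1, 9 without CMA 2 and 5 without CMA 3, and 19 in the 6 STINGgt/gt libraries alone. Among genes with a matched promoter, the HIF core GCGTG was present in 46.3% of those that rose, 44.3% of those that fell and 55.7% of all. It was present in 26 of 37 oxygen-responsive genes with a matched promoter (70.3%), among them 5 of the 10 that fell.

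**Figure D3:**
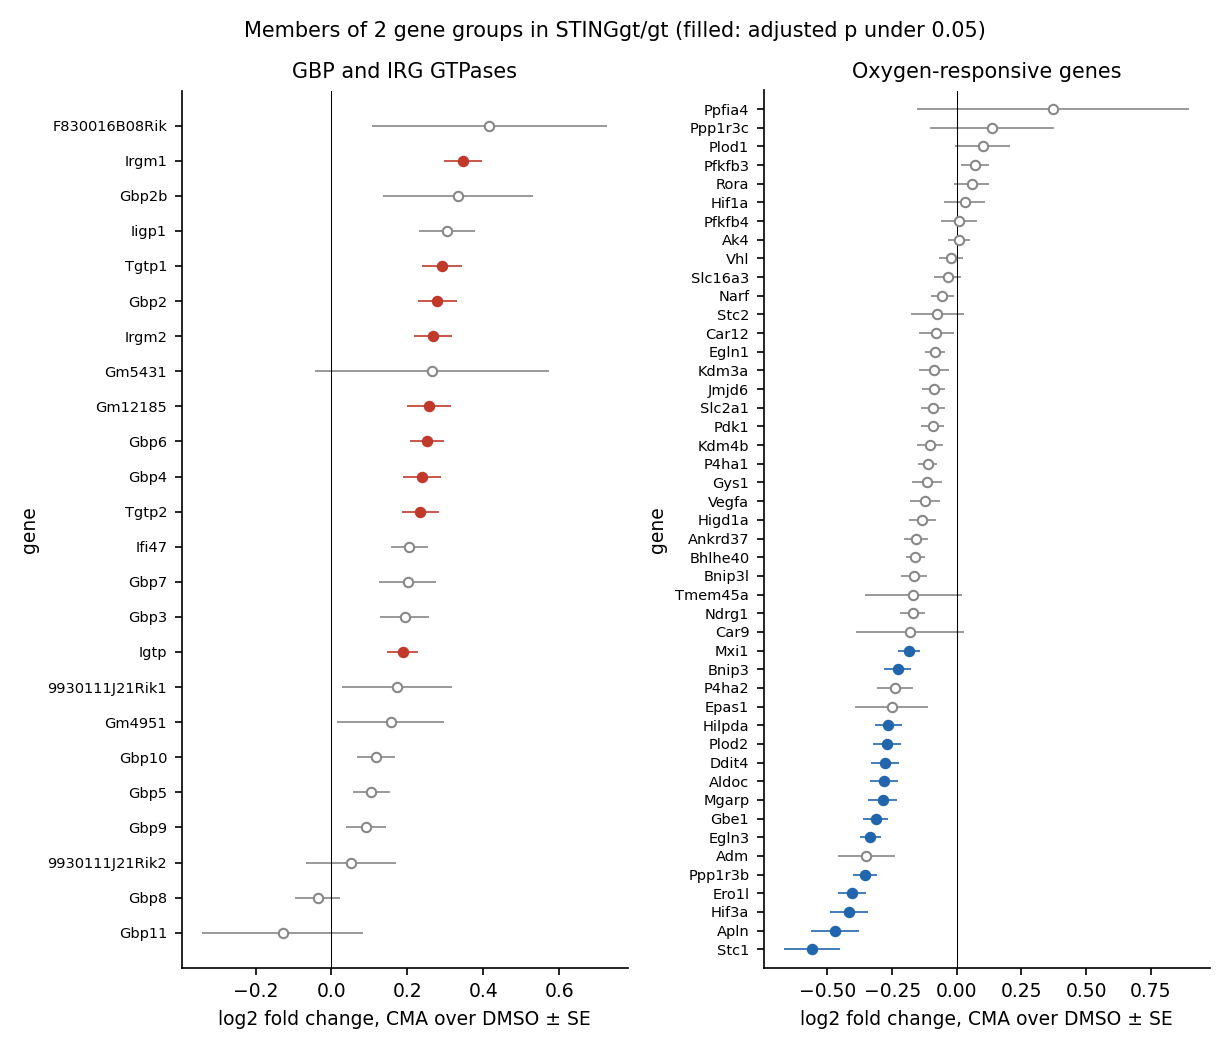
Log2 fold change of CMA over DMSO in STINGgt/gt cells with its standard error for the 24 tested GBP and IRG genes and the 46 tested oxygen-responsive genes, filled where the adjusted p was under 0.05. The 9 filled GTPase genes lie right of 0 and the 14 filled oxygen-responsive genes left of it, and most open points lean to the same side as the filled ones.

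The fallen genes also included receptors and an effector gene of T cells. Il7r, the receptor chain for the survival cytokine IL-7 (chr15:9506161-9529876), was at 21.7, 23.3 and 25.9 CPM with DMSO and at 16.8, 18.7 and 17.1 CPM with CMA (-0.42 ± 0.062, adjusted p = 0.00271). Gzmb, which encodes the cytotoxic protease granzyme B (chr14:56258856-56262260), was at 857, 838 and 881 CPM against 676, 639.5 and 631 CPM (-0.40 ± 0.061, adjusted p = 0.00317). Il7r and Gzmb passed in all 22 alternative fits. Gzmb was 1 of 16 tested cytotoxic granule genes to pass in the joint fit, against 0.920% of all genes tested that fell. In the 6 STINGgt/gt libraries alone, 2 of 14 cytotoxic granule genes fell, against 388 of all 13113 genes. The chemokine receptor gene Cxcr4 was at 24.6, 24.4 and 28.2 CPM against 21.3, 21.2 and 20.4 CPM (-0.29, adjusted p = 0.0270), and it passed in no fit without 1 STINGgt/gt library. The lists that follow are to be read against 0.398% of all genes tested that rose and 0.920% that fell. Of 30 tested genes of homing and the naive state 3 fell, Il7r and Cxcr4 among them, and none rose in the joint fit, while 5 rose in the 6 STINGgt/gt libraries alone. Among 31 lineage transcription factors, Tbx21 and Bcl6 (0.34) rose while Gata3, Id2 and Ikzf4 (-0.32) fell, Bcl6 passing in none and Ikzf4 in 1 of the 6 fits without a STINGgt/gt library. Gata3, the Th2 factor, was at 23.1, 23.6 and 25.6 CPM with DMSO and at 18.8, 20.02 and 19.5 CPM with CMA (-0.31 ± 0.053, adjusted p = 0.00841). Of 41 cytokine receptors and SOCS genes 3 fell, Il7r, Ifngr2 (-0.27) and Socs3 (-0.25), of which Ifngr2 passed in 1 and Socs3 in none of the 6 fits without a STINGgt/gt library. The intermediate filament gene Vim (-0.42) and the membrane-binding gene Anxa2 (-0.32) were the 2 of 35 actin, adhesion and migration genes that fell.

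Of 36 tested BCL-2 family genes and caspases, 1 rose and 2 fell (8.33%, against 1.32% of all genes tested), with a median of 0.02. Bcl2l11, which encodes the pro-apoptotic protein BIM, was at 68.5, 68.1 and 72.5 CPM with DMSO and at 79.6, 80.0 and 83.9 CPM with CMA (0.22 ± 0.049, adjusted p = 0.0350). Bcl2, the anti-apoptotic founder of the family, was at 403, 429 and 452 CPM against 330.1, 372 and 364 CPM (-0.27 ± 0.059, adjusted p = 0.0350). The groups did not overlap in either gene, but neither passed in any of the 6 fits without a STINGgt/gt library, where the adjusted p ranged up to 0.190 for Bcl2l11 and 0.170 for Bcl2. The caspase gene Casp6 fell by 0.26 on the log2 scale (adjusted p = 0.0167), and passed in 2 of the 6 fits without a STINGgt/gt library. The genes of the BH3-only proteins NOXA and PUMA, Pmaip1 (0.10, adjusted p = 0.494) and Bbc3 (0.06, adjusted p = 0.806), had no call. None of 31 tested p53 targets passed in the joint fit, where Cdkn1a had -0.29 with an adjusted p of 0.0618, while Cdkn1a fell in the 6 STINGgt/gt libraries alone (-0.30, adjusted p = 0.00118, edgeR). With CMA in WT cells, Bcl2l11 rose by 1.67, Casp6 had -1.25 and Bcl2 had 0.01. The adjusted p of the difference from STINGgt/gt (edgeR) was 3.79e-11 for Bcl2l11, 5.45e-09 for Casp6 and 0.00927 for Bcl2.

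CMA is an acridone, a flat aromatic compound, so the genes that such molecules can induce were examined as lists. None of 11 tested targets of the aryl hydrocarbon receptor passed in the joint fit (10 negative, median -0.22), while 1 fell in the 6 STINGgt/gt libraries alone, Tiparp (-0.22, adjusted p = 0.0125, edgeR), and the most used of them, Cyp1a1, Cyp1b1 and Ahrr, were too low to be tested. No call fell on 27 NRF2 targets, on 31 genes of drug metabolism and efflux, on 20 heat shock genes, on 8 metal response genes or on 37 genes of lysosome and autophagy in the joint fit. In the 6 STINGgt/gt libraries alone, 1 of 26 NRF2 targets fell, 2 of 29 genes of drug metabolism rose and 1 fell, 1 of 19 heat shock genes rose, and of the metal response genes 1 rose and 2 fell. Over all 13113 genes of that fit 268 rose and 388 fell, and the counts from it in this paragraph are to be read against these. Hmox1, the heme oxygenase induced by NRF2, was at 14.5, 11.9 and 11.8 CPM with DMSO and at 12.8, 13.03 and 11.8 CPM with CMA (-0.03). The 36 genes of cholesterol and fatty acid synthesis, the 10 of sterol efflux, the 16 of the circadian clock, the 48 of mitosis, the 45 nuclear genes of oxidative phosphorylation and the 79 gene entries of cytosolic ribosomal proteins had no call in the joint fit either, and in the 6 libraries alone 2 genes of cholesterol and fatty acid synthesis, 2 of the circadian clock and 1 of mitosis fell. A list without a call is not shown to be unchanged. At an unadjusted p under 0.05, 1790 of all genes tested passed. Among stress genes that did pass, read against the 0.920% of all genes that fell, the endoplasmic reticulum stress factor Xbp1 (-0.22) and the stress genes Ddit3 (-0.33) and Ddit4 (-0.28) fell, which were 1 of 25 tested genes of endoplasmic reticulum stress and 2 of 39 of the ATF4 response, and none of either list rose in the joint fit. When the 6 STINGgt/gt libraries were fitted alone, 3 genes of endoplasmic reticulum stress fell, and 1 gene of the ATF4 response rose and 2 fell. Of 17 genes of STING signalling itself 1 passed, against 0.920% of all genes tested that fell. This was Enpp1, whose enzyme degrades the cyclic dinucleotide cGAMP (-0.34). With the 6 STINGgt/gt libraries alone, 1 gene of this list rose and 2 fell. Enpp1, Xbp1 and Ddit3 passed in none of the 6 fits without a STINGgt/gt library, and Ddit4 in 1. Of 35 NF-κB targets and regulators 2 rose, Ccl3 and Ccl4, against 0.398% of all genes tested, and Ier3 fell, from 29.0, 31.1 and 28.4 CPM to 21.5, 17.9 and 21.2 CPM (-0.55, adjusted p = 0.000654). Of 15 glucocorticoid-responsive genes 3 fell (Il7r, Ddit4 and Cxcr4), of 17 retinoid-responsive genes 1 (Tgm2) and of 25 G1 cyclins, CDKs and CDK inhibitors 1 (Cdkn2d, -0.19), against 0.920% of all genes tested, and none rose in the joint fit. Fitted alone, the 6 STINGgt/gt libraries gave 1 retinoid-responsive gene that rose and 2 that fell. They gave 2 genes of the G1 list that rose and 5 that fell. Cdkn2d passed in 1 of the 6 fits without a STINGgt/gt library.

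Some lists leaned to 1 side with few or no genes past the threshold. Of 43 genes of ribosome biogenesis and Myc, 42 had a positive log2 fold change with a median of 0.10, and none passed in the joint fit. An unadjusted p under 0.05 was reached by 17 of the 43, against 1790 of all 13811 genes tested. In the 6 STINGgt/gt libraries alone, 5 of 42 rose, against 268 of all 13113 genes. Of 47 DNA replication genes 45 were positive (median 0.06), and Chaf1a (0.17), a subunit of the chromatin assembly factor, passed, though in none of the 6 fits without a STINGgt/gt library. Of 20 heat shock genes 19 were positive, and of 36 cholesterol and fatty acid genes 30 were negative. Of 12 tested sialyltransferase genes, a list put together after values had been seen, St6galnac4 rose (against 0.398% of all genes tested) while St6gal1 (-0.24) and St3gal1 (-0.18) fell (against 0.920%), and St6gal1 passed in 2 and St3gal1 in none of the 6 fits without a STINGgt/gt library. These counts are descriptions and were not tested. The libraries were made with a stranded mRNA kit, which selects polyadenylated RNA, and other RNA also differed between the groups. The 66 gene entries of ribosomal, histone and other non-polyadenylated RNA summed to 1762, 1872 and 1788 CPM with DMSO and to 1484, 1504 and 1492 CPM with CMA. Of the 29 tested, 4 fell (Gm26924, Gm26917, mt-Rnr1 and Hist1h3e), against 0.920% of all genes tested, and none rose, with a median of -0.46. Gm26924 passed in each of the 6 fits without a STINGgt/gt library, Gm26917 and Hist1h3e in 1 and mt-Rnr1 in none. The count of non-polyadenylated and ribosomal RNA genes that fell was 1 without DMSO 1, DMSO 2, CMA 2 or CMA 3, 2 without DMSO 3 or CMA 1, and 7 without WT DMSO 2 or WT DMSO 3. This list was put together after values had been seen, and its part in the other results was not tested. Gm26924, an entry that overlaps ribosomal RNA sequence (chr17:39846958-39848788), was at 678, 740.3 and 653 CPM against 521, 475 and 509 CPM.

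**Figure D4:**
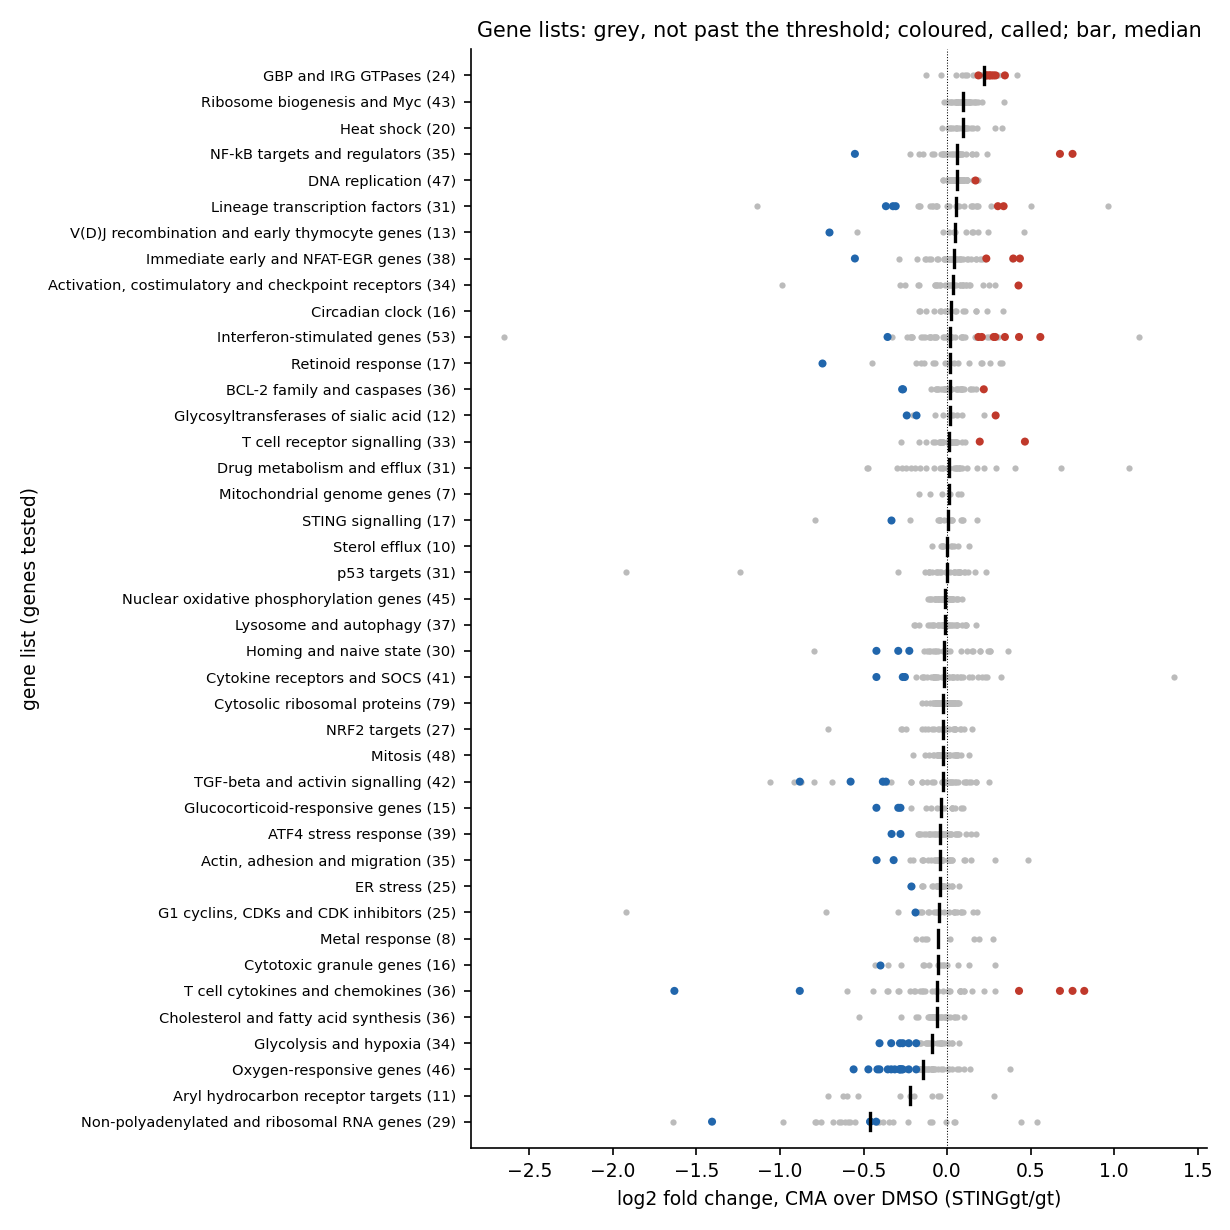
Log2 fold change of CMA over DMSO in STINGgt/gt cells for each tested gene of each list, with the number tested in brackets, grey for genes not past the threshold, coloured for genes that passed, and a bar at the median. The median is 0.22 for the GBP and IRG genes, -0.14 for the oxygen-responsive genes and -0.46 for non-polyadenylated and ribosomal RNA, and lies closer to 0 in every other list except the aryl hydrocarbon receptor targets.

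Whether the 182 genes changed differently in WT cells was tested by the difference of the CMA effects, each genotype having its own DMSO controls. This difference passed for 8123 of all genes tested (58.8%) and for 130 of the 182. Of the 130, 79 changed in the same direction and further in WT, 2 in the same direction and less, 36 in the opposite direction, and for 13 the WT effect did not pass. Cxcl10 rose by 5.38 in WT against 0.43 in STINGgt/gt, Tagap by 1.70 against 0.47 and Il2 by 2.63 against 0.82, and Dntt had -3.97 against -0.71 (adjusted p of each difference at most 2.20e-07). The 36 opposite genes included Egr2, which rose in STINGgt/gt and had -2.23 in WT (difference 2.62, adjusted p = 9.72e-13), Dhx58, which fell and had 2.26 in WT (difference -2.62), Slc29a1, a nucleoside transporter gene with 0.26 against -1.42, Ccl3 with 0.68 against -0.86 and Il7r with -0.42 against 1.16. Genes called in STINGgt/gt without a passing WT effect included the actin-binding gene Coro2a (79.0, 83.2 and 84.7 CPM against 61.8, 65.8 and 64.4 CPM, -0.36 against 0.05 in WT, adjusted p of the difference 2.42e-05), Tmem108 (-0.79 against 0.05, adjusted p = 0.000102) and Bcl2 (-0.27 against 0.01, adjusted p = 0.00927). Coro2a and Tmem108 passed in all 22 alternative fits of the STINGgt/gt comparison.

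For 52 of the 182 genes the difference from WT did not pass, and 49 of these passed in the same direction in WT. Among them were Itga7, an integrin chain (-0.60 in STINGgt/gt and -0.80 in WT, adjusted p of the difference 0.135), Asb2 (-0.73 and -1.001, 0.0974), Gzmb (-0.40 and -0.53, 0.236), Id2 (-0.37 and -0.30, 0.483) and Gbe1 (-0.31 and -0.25, 0.476). Nr4a1 rose by 0.24 and 0.26 (0.785). A difference that misses the threshold does not show that the effects were equal. Of the 9 risen GBP and IRG genes each rose further in WT, by 1.46 for Gbp2 and 1.76 for Irgm1, and among all 24 tested 23 rose in WT with a median of 1.95. Of the 14 oxygen-responsive genes that fell in STINGgt/gt, 12 also fell in WT, Ddit4 did not pass there and Mxi1 rose. Among all 46 tested, 13 rose and 22 fell in WT.

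**Figure D5:**
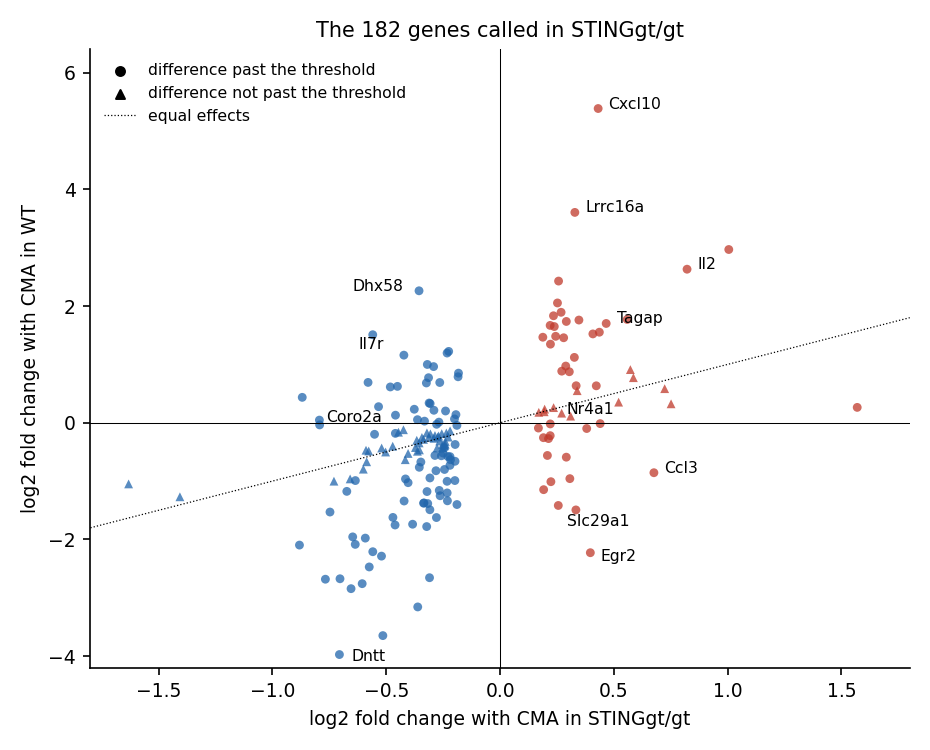
Each point is one of the 182 genes called in STINGgt/gt cells, with its log2 fold change with CMA in STINGgt/gt on the horizontal and in WT on the vertical axis, round where the difference between genotypes passed the threshold and triangular where it did not. The 36 genes whose WT effect is past the threshold in the opposite direction lie in the upper left and lower right, such as Dhx58 and Egr2, and Nr4a1 lies near the dotted line of equal effects.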

How the data were processed

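RNA from 12 mouse T cell libraries (WT and STINGgt/gt, DMSO and CMA, 3 each) was sequenced, and the authors deposited raw counts per Ensembl gene for each library. The submitters' processing notes name cutadapt 1.3, STAR 2.4.0f1, HTSeq 0.6.1, RSEM 1.2.16 and GRCm38. Libraries were made with a stranded mRNA kit. The gene annotation and the strand setting of the counting are not given in the sources used here. The counts hold no molecular identifiers, so PCR duplicates cannot be told from molecules. Between 28.1% and 29.0% of reads in the STINGgt/gt libraries were marked as not unique, and these and the other summary rows were left out. A table of log2 values of 11921 genes, also deposited by the authors, served as an alternative.

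The 12 libraries were fitted jointly in 4 groups with edgeR 4.0.16 (R 4.3.3): TMM scaling, filterByExpr by group, quasi-likelihood tests, Benjamini-Hochberg adjustment over the 13811 genes tested, threshold 0.05. The contrasts were CMA against DMSO within each genotype and their difference. CPM used TMM-scaled library sizes. No gene set was tested. Lists were described by counts and medians. The comparison, the lists and the tests were chosen with earlier results of these data known, and 4 lists were added after values had been seen. Genes named in the text were the 12 with the smallest p in each direction, the 8 of each direction with the largest change at a mean count of at least 50, called members of each list (up to 5), 6 with opposite effects in WT, 6 with no call for the difference from WT, and reference genes of lists without a call. Others were named after their values were seen, and some that the rule names are not reported here. Symbols came from the deposited log2 table for 11921 gene IDs and from a reference list for 25762, and 1241 of 38924 had none. Promoters came from RefSeq (GRCm38.p6). The scripts were tested on simulated data. The joint fit recovered 21 of 50 genes changed 1.2-fold, 40 of 50 at 1.3-fold, 43 of 50 at 1.5-fold and 49 of 50 at 2-fold. It also called 20 of 13496 unchanged genes, so small changes were often missed and some calls were false. Alternatives were DESeq2 1.42.0, limma-voom and limma (3.58.1), other scalings and filters, the 6 STINGgt/gt libraries alone, replicate blocks, other thresholds, and leaving out each library.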

Additional observations from a re-analysis of the deposited data

Results flagged for a closer look

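The CMA effect differed between STINGgt/gt and WT cells, by the test of the difference in edgeR's joint fit, for 130 of the 182 genes that changed in STINGgt/gt cells. Of these, 79 changed further in the same direction in WT, 2 less, 36 in the opposite direction, and 13 had no passing effect in WT. The opposite genes with the smallest p for the difference were Egr2, with an effect in STINGgt/gt minus that in WT of 2.62 on the log2 scale, Dhx58 with -2.62, Slc29a1 with 1.67, Sdc4 with -1.43, Itm2a with 1.34 and Anxa2 with -1.32. Egr2 and Anxa2 passed in all 22 alternative fits in STINGgt/gt cells. Dhx58, Slc29a1, Sdc4 and Itm2a did not, and missed the threshold in 3 or more of the 6 fits without 1 STINGgt/gt library. No group held enough libraries for a search for outlying samples.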

How the results depend on the processing

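None of the 182 genes changed direction in any of the 22 alternative fits, 32 passed in all of them and 172 in at least 11. The counts differed between fits. Against 55 higher and 127 lower genes, of which 130 differed from WT, DESeq2 gave 123, 200 and 242, no filter 176, 257 and 322, a minimum of 10 counts in every library 85 higher and the 6 STINGgt/gt libraries alone 268 and 388. An adjusted p under 0.01 left 14, 41 and 42 genes, and a 2-fold change 2, 2 and 2. Other scalings, limma-voom and the deposited log2 table gave counts within 1.5 times of these. Leaving out each library in turn gave 14 to 180 higher genes, 41 to 289 lower genes and 40 to 348 that differed from WT. Leaving out 1 of 3 libraries also lowers the power of the test, and the removal of WT DMSO 2 or WT DMSO 3 was the only removal that raised the counts by over 1.5 times. The deviations of libraries with the same replicate number had correlations of 0.0634, 0.0597 and 0.0585 in STINGgt/gt and of 0.00195, 0.104 and 0.132 in WT, not all over 0.1, so they were not treated as pairs. Each STINGgt/gt library correlated best with its own number, while WT DMSO 1 and WT CMA 1 did not. A replicate block by the number in the titles gave 130, 233 and 280 genes, and a replicate block by the first digits of the library names, which leaves both replicate 2 libraries of STINGgt/gt without a partner, 12, 31 and 35. The cause of these shifts was not tested. Il24, Hist1h3e, Igkv4-59 and Gm12532 rest on 4 to 66 reads in a library.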
